A study of Mus musculus with 20 samples.

Results

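The comparison described here is between 2 point mutations of the same gene, Idh2R172K and Idh2R140Q, in mouse blood stem and progenitor cells. Its members were chosen by genotype alone: the 4 Idh2R172K libraries and the 4 Idh2R140Q libraries, 8 of the 20 RNA-seq libraries of the series, and the 14221 of 46078 genes whose mean over these 8 libraries was at least 1 TPM. TPM is a transcript level corrected for gene length and for library size. The cells were LSK cells, sorted from bone marrow as Lin-cKit+Sca1+, and each library was made from the total RNA of a pool of 2 mice. All mice were C57Bl/6J, 3 to 4 months old. The mutant genotypes were Idh2LSL-R172K/+;Vav-Cre and Idh2LSL-R140Q/+;Vav-Cre, each heterozygous for an allele that Cre switches on, and the wild-type mice (WT, 4 libraries, +/+;Vav-Cre) carried the same Cre. Vav-Cre is active across the blood-forming lineage, so the alleles were not restricted to LSK cells. The 2 remaining groups of the series had mutant Idh1 or lacked Tet2. They entered the variance estimate of the comparisons with WT and of the alternative fit of the alleles on all 20 libraries. Nothing in the labels says whether the pools were collected or sequenced together.

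IDH2 is the mitochondrial enzyme that turns isocitrate into 2-oxoglutarate with NADP+. The arginines replaced in R140Q and R172K lie in its active site, and both are recurrently mutated in acute myeloid leukaemia. The mutant enzymes reduce 2-oxoglutarate to D-2-hydroxyglutarate, which competes with 2-oxoglutarate in a large family of dioxygenases, among them the TET enzymes that oxidise 5-methylcytosine and the JmjC enzymes that demethylate histones. LSK cells hold the stem cells and multipotent progenitors, many of which already carry low levels of RNA from the erythroid, myeloid, lymphoid or megakaryocyte programmes, a state called priming.

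The codon replaced in R140Q lies in exon 4 of Idh2 on the minus strand of mouse chromosome 7. It is shown because it is the site at which 1 of the 2 genotypes was made. The line gives the unmutated mm10 sequence, 5′ to 3′ on the coding strand, from the GENCODE M21 transcript ENSMUST00000107384, with the arginine codon in capitals and 15 bases on either side.
Idh2, codon replaced in R140Q, chr7:80099112-80099114: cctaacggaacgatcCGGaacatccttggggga

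The labelled cell type could be checked against its markers. Kit, the stem cell factor receptor that the sort selects for, had 541, 636, 562 and 622 TPM in the Idh2R172K libraries and 370.0, 480.2, 383 and 487 TPM in the Idh2R140Q libraries. Ly6a, which encodes Sca1, had 115 to 144 and 143 to 190.4 TPM, and Cd34 had 564 to 597 and 496 to 549 TPM. Of the lineage markers, Cd3e, Cd8a, Ly6g and Ms4a1 had means under 1 TPM, and Cd4 lay at 0.835 to 5.41 TPM. Itgam, a marker of myeloid cells, lay at 44.5 to 61.6 TPM in Idh2R172K and 24.6 to 43.7 TPM in Idh2R140Q, without overlap (limma adjusted p = 0.0649, and 0.00617 with the replicate block, a fit that pairs same-numbered libraries). The libraries held 38.9 to 45.0 M assigned reads, rebuilt from TPM and gene length. The number 4 library of each genotype stood apart: the rRNA-like transcript Gm23935 took 7.55 to 8.13% of its TPM, against 11.0 to 12.6% in the other 6 libraries. Pools 1 and 3 of each genotype had female and pools 2 and 4 male sex-linked RNA, so the genotypes were balanced for sex. These are bulk samples, in which fewer cells of a type and less RNA per cell cannot be told apart.

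Idh2 RNA itself was higher in one of the genotypes. It stood at 896, 887, 940.4 and 1024 TPM in the Idh2R172K libraries, at 496, 474, 554 and 621 TPM in the Idh2R140Q libraries and at 469.7, 485, 516 and 647 TPM in WT. The Idh2R172K libraries lay above all 8 others, by 1.75-fold over Idh2R140Q (log2 difference 0.81 ± 0.10 SE, limma with Benjamini-Hochberg adjustment, adjusted p = 0.00117), while the other 2 groups overlapped. Gene-level TPM adds the mutant and the wild-type copy and does not show the codon, so it does not check which mutation a library carries. Idh1, the cytosolic enzyme with the same reaction, had 78.9, 88.6, 87.1 and 72.4 TPM in Idh2R172K and 85.8, 83.2, 120.5 and 92.2 TPM in Idh2R140Q, overlapping ranges (adjusted p = 0.392). Tet2 had 12, 14.1, 11.0 and 14.3 TPM in Idh2R172K and 8.14, 9.91, 8.32 and 13.4 TPM in Idh2R140Q, also overlapping (log2 difference 0.36 ± 0.17, adjusted p = 0.261, and 0.0384 with the replicate number as a block).

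**Figure D1:**
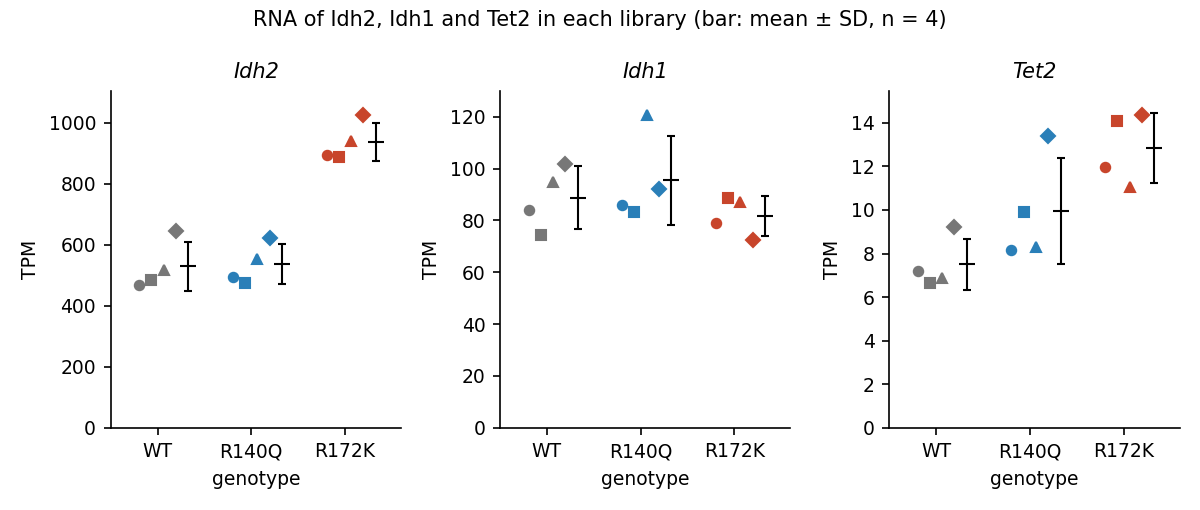
TPM (linear axes from 0) of Idh2, Idh1 and Tet2 in each library of WT, Idh2R140Q (R140Q) and Idh2R172K (R172K); symbols stand for libraries 1 to 4 and bars for the mean ± SD of n = 4. Idh2 lies between 887 and 1024 TPM in all R172K libraries and below 647 TPM in the others, whereas the genotypes overlap for Idh1, and R140Q and R172K overlap for Tet2.

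Across all genes, 1321 of 14221 differed between the alleles at an adjusted p under 0.05, which is 9.29% of the genes tested. Of these, 510 (3.59% of genes tested) were higher and 811 (5.7%) were lower in Idh2R172K, and 137 and 395 of them differed by at least 2-fold. The median difference over all genes was 0.03 on the log2 scale, and 55.0% of genes lay above 0. The libraries of the alleles did not overlap for 1312 of the called genes, against 17% of all genes tested. With the replicate number as a block the count rose to 3701 (26%), 1856 higher (13.1%) and 1845 lower (13%), and included all 1321. Leaving out Idh2R172K library 2 lowered the count to 878, and the count of higher genes fell to 288 without it and to 329 and 324 without Idh2R140Q libraries 1 and 2. Of the 1321 genes, 799 were called whichever single library was left out, and none changed direction. The share of higher genes among the called ones was 38.6%, and 48.7% without Idh2R140Q library 4.

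**Figure D2:**
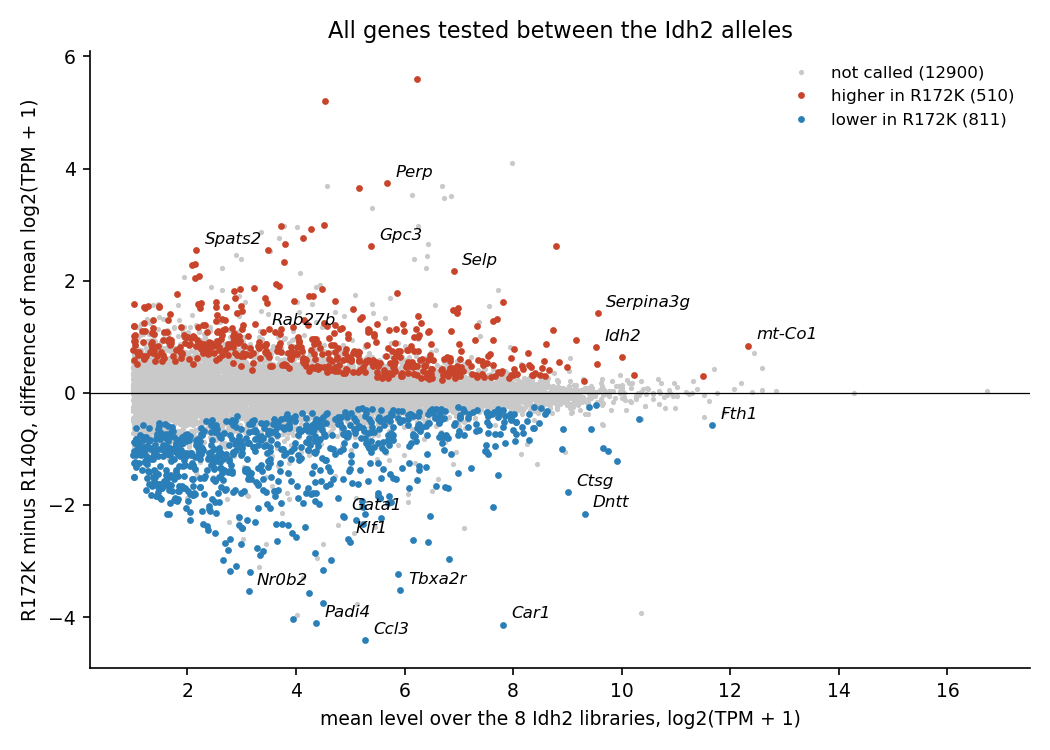
Difference of mean log2(TPM + 1), Idh2R172K minus Idh2R140Q, against mean level over the 8 libraries for all 14221 genes; 510 called genes (red) are higher and 811 (blue) lower in R172K. The falls reach further than the rises among named protein-coding genes, to -4.40 for Ccl3 against 3.74 for Perp.

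The WT mean was nearer to the Idh2R140Q than to the Idh2R172K mean for 1296 of the 1321 called genes (98.1%) on the log2 scale. It fell within the span of the 4 Idh2R140Q libraries for 985 genes and within that of the Idh2R172K libraries for 13. On a scale where the Idh2R140Q mean is 0 and the Idh2R172K mean is 1, WT had a median position of -0.03, its middle 50% of genes ran from -0.15 to 0.10, and 1021 genes (77.3%) lay within 0.25 of the Idh2R140Q mean. The median differed with direction, at -0.12 for genes higher and 0.02 for genes lower in Idh2R172K. In the limma fit of all 20 libraries, 2207 genes differed between Idh2R172K and WT and 1 between Idh2R140Q and WT. The latter comparison had 426 genes at an unadjusted p under 0.05, and both comparisons with WT share the 4 WT libraries. The same fit called 1493 genes between the alleles, among them 1126 of the 1321. The count of 2207 therefore compares with 1493 and not with 1321.

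**Figure D3:**
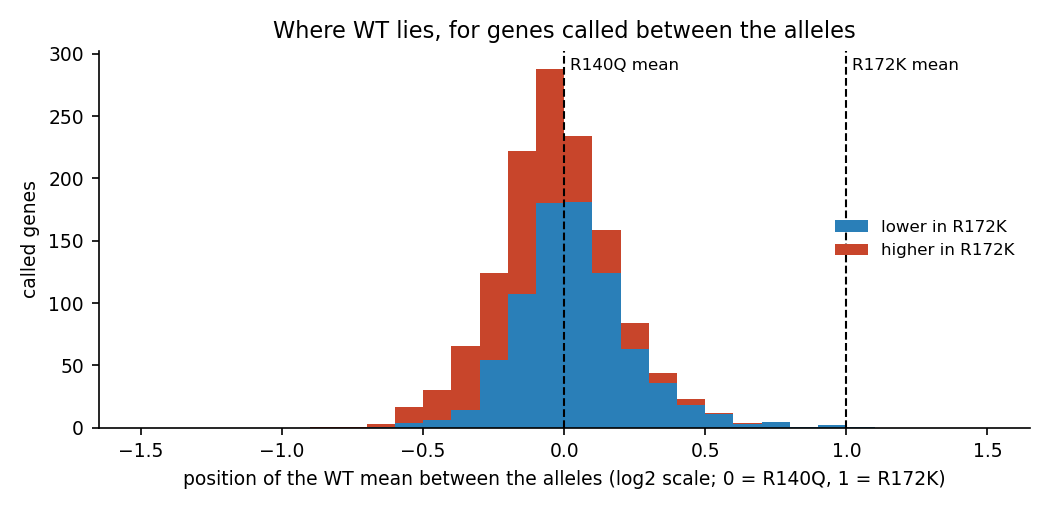
Number of called genes by the position of the WT mean on the line from the Idh2R140Q mean (0) to the Idh2R172K mean (1), log2(TPM + 1) scale, with genes lower (blue) and higher (red) in R172K stacked. The counts pile up around 0, and 1296 of 1321 genes lie below 0.5.

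The largest rise of a named gene was that of Perp, a membrane protein of cell junctions and a p53 target. It had 84.1, 102, 106 and 87.8 TPM in the Idh2R172K libraries and 6.39, 6.99, 5.65 and 5.63 TPM in the Idh2R140Q libraries. This was a 15.4-fold separation with no overlap (log2 difference 3.74 ± 0.11, limma adjusted p = 2.85e-06), and WT was at 6.03 ± 0.613 TPM (SD, n = 4). Cd200r4, a receptor of the CD200R family on myeloid cells, had 27.1, 18.8, 19.7 and 24.1 TPM against 2.04, 2.36, 1.41 and 2.06 TPM (2.98 ± 0.16, adjusted p = 3.74e-05). Gpc3, a glypican that sits on the cell surface and binds growth factors, had 58.7, 83.1, 80.4 and 58.3 TPM against 10.2, 6.76, 16.7 and 9.90 TPM (2.62 ± 0.24, adjusted p = 0.000374). The largest rises and falls were ranked only among called genes without overlap, so the lack of overlap was a condition of naming these genes.

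Several of the other large rises started from very low levels. Spats2 went from 0.309 ± 0.131 to 6.65 ± 0.598 TPM, Zfp711 from 0.470 ± 0.0654 to 6.35 ± 1.5 TPM and Mpzl2 from 0.465 ± 0.415 to 6.07 ± 1.89 TPM (Idh2R140Q to Idh2R172K, SD, n = 4). Dlk1, a Delta-like membrane protein that is active in fetal tissues, went from 0.740 ± 0.199 to 6.52 ± 2.00 TPM. Sparc, a matrix protein, went from 0.736 ± 0.258 to 6.13 ± 0.879 TPM. These genes were near 1 TPM or below it in every Idh2R140Q library and between 4.24 and 9.42 TPM in every Idh2R172K library. Fhdc1, Smagp, Tmem215, S100a4 and Vash2 rose by log2 differences of 1.90 to 2.77, from means of 2.75 to 4.52 TPM to means of 18.6 to 29.6 TPM. Igfbp7 was the 15th of the largest rises (5.36, 15.8, 6.85 and 28.7 against 1.66, 2.08, 2.32 and 4.01 TPM), but its adjusted p of 0.0402 passed 0.05 without Idh2R140Q library 1, 2 or 3 or Idh2R172K library 2, at 0.0993 to 0.116.

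Among abundant RNAs, Serpina3g, an intracellular serine protease inhibitor, had 1074, 1059.9, 1042 and 1198 TPM in Idh2R172K and 364, 396, 357 and 532 TPM in Idh2R140Q (1.42 ± 0.13, limma adjusted p = 0.000295). Adgrl4, an adhesion G protein-coupled receptor, rose from 795 ± 49.5 to 1247 ± 106 TPM (adjusted p = 0.0014, and 0.16 in the fit of all 20 libraries). The mitochondrially encoded mt-Co1, a subunit of cytochrome c oxidase, had 7312, 7082, 6692 and 5330.4 TPM in Idh2R172K and 4344, 3988, 3551 and 2915 TPM in Idh2R140Q (0.84 ± 0.15, adjusted p = 0.00749, and 0.0767 after median-of-ratios scaling). The groups did not overlap, and it was the 1 called member of a list of 10 mitochondrial protein and ribosomal RNA genes tested. The full list had 15 genes, of which 5 had means under 1 TPM, among them mt-Co2 and mt-Co3. Of these, 4 had no TPM in any of the 8 libraries, so the tested genes are only part of the mitochondrial set. The mitochondrial transfer RNA mt-Tq, which is not in the list, was also called higher. With the replicate block 4 of the 10 were higher and 1 lower.

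The largest fall was that of Ccl3, a chemokine of myeloid cells, which varied widely within Idh2R140Q. It had 46.6, 69.3, 30.5 and 148 TPM there and 1.52, 0.857, 2.03 and 4.49 TPM in Idh2R172K (-4.40 ± 0.49, limma adjusted p = 0.000904). Car1, the carbonic anhydrase of early erythroid cells, had 382, 424, 473 and 411 TPM in Idh2R140Q and 10.5, 35.7, 25.6 and 28.8 TPM in Idh2R172K (-4.13 ± 0.32, adjusted p = 0.000167). Padi4, which converts arginine to citrulline in histones and other proteins, had 29.9, 43.3, 36.8 and 42.9 TPM in Idh2R140Q and 0.949, 1.66, 1.05 and 1.42 TPM in Idh2R172K (-4.11 ± 0.16, adjusted p = 1.56e-05). No Idh2R172K library reached even the lowest Idh2R140Q library for any of the 3, which the ranking required.

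Other named genes fell from a clear level to near 1 TPM or less. Chdh, a mitochondrial choline dehydrogenase, went from 28.1 ± 8.55 to 0.725 ± 0.270 TPM. Nr0b2, a nuclear receptor that represses transcription, went from 15.1 ± 2.36 to 0.382 ± 0.136 TPM. Ly9, a SLAM-family receptor of blood cells, went from 34.0 ± 7.87 to 1.91 ± 0.405 TPM (Idh2R140Q to Idh2R172K, SD, n = 4). Tbxa2r, the thromboxane A2 receptor, stayed above that level but fell from 109.6 ± 18.5 to 8.63 ± 1.18 TPM. Psma8, Lipo3, Prss50, Ces2g and the pseudogene Rps4l fell by log2 differences of 2.85 to 3.17, and the difference of Idh2R140Q from WT ran only from -0.42 (Psma8) to 0.15 (Tbxa2r) over these 9 genes. Their calls held in every setting tried.

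**Figure D4:**
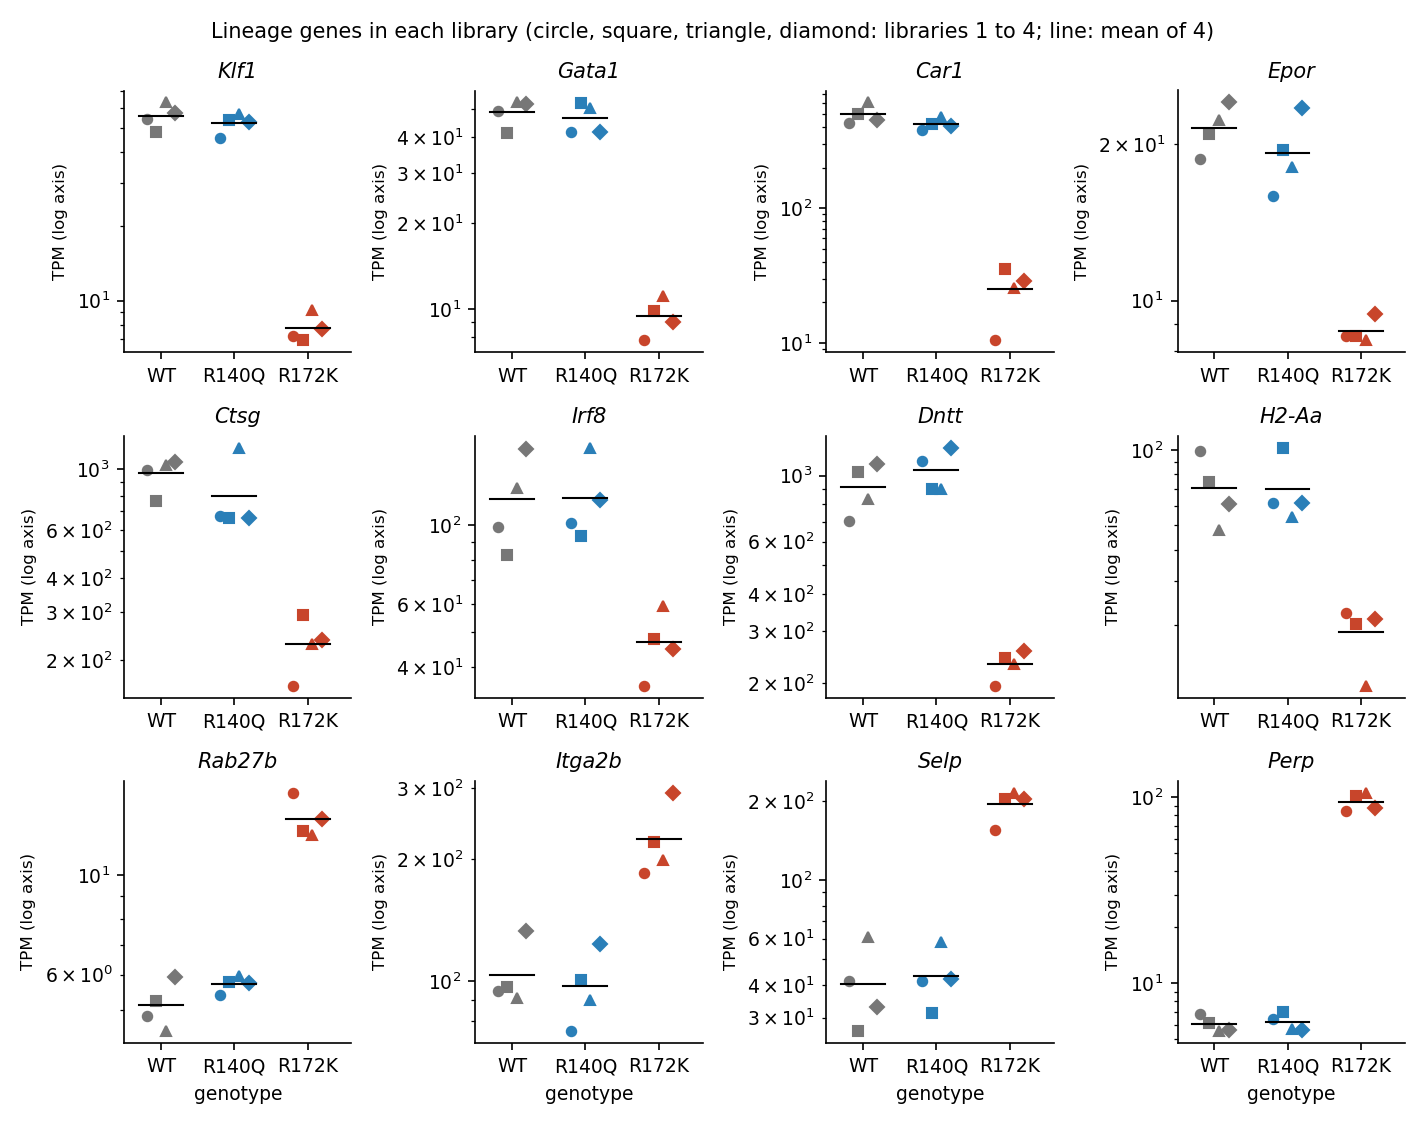
TPM (log axes) of 12 genes, lineage genes and the p53 target Perp, in each library of WT, Idh2R140Q and Idh2R172K. Symbols stand for libraries 1 to 4 and lines for means of 4. The 4 R172K libraries lie below all R140Q libraries for Klf1 to H2-Aa and above them for Rab27b to Perp, and the WT mean lies nearer to the R140Q mean.

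The erythroid genes formed the list with the most falls. Of 34 tested, 20 were lower and 1 was higher in Idh2R172K, where 9.29% of all genes were called, and the list median was -0.95 against 0.03 over all genes. With the replicate block the share of all genes called was 26%, and both shares apply to every list below. Klf1, the transcription factor that drives globin and other red cell genes, had 45.6, 53.9, 56.5 and 52.8 TPM in Idh2R140Q and 7.22, 6.90, 9.20 and 7.65 TPM in Idh2R172K (-2.61 ± 0.11, limma adjusted p = 1.61e-05). Gata1, the factor upstream of it, had 41.8, 52.8, 50.8 and 41.5 TPM in Idh2R140Q and 7.77, 9.86, 11.1 and 9.04 TPM in Idh2R172K (-2.19 ± 0.13, adjusted p = 5.22e-05). For both genes the highest Idh2R172K library was far below the lowest Idh2R140Q library, and WT (55.7 ± 6.28 and 49.0 ± 5.25 TPM) lay beside Idh2R140Q.

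Receptors and membrane proteins of the lineage fell as well. The erythropoietin receptor Epor had 15.9, 19.5, 18.1 and 23.5 TPM in Idh2R140Q and 8.56, 8.57, 8.38 and 9.44 TPM in Idh2R172K (-1.04 ± 0.13, limma adjusted p = 0.00149). Rhd, a protein of the Rh blood group complex, fell from 26.3 ± 2.62 to 3.65 ± 0.818 TPM. The water channel Aqp1 fell from 80.6 ± 8.09 to 21.8 ± 0.582 TPM. Sphk1, a sphingosine kinase, fell from 10.8 ± 1.48 to 0.681 ± 0.141 TPM, and Car2, a second carbonic anhydrase, from 1079 ± 211 to 539 ± 42.2 TPM. Cnrip1 was the 1 higher member, at 26.2 ± 2.82 against 13.3 ± 3.68 TPM.

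Not all members of the list differed. The 4 adult globins Hba-a1, Hba-a2, Hbb-bs and Hbb-bt were low in both genotypes, at means of 3.09 to 28.4 TPM, and none was called (adjusted p of 0.231 to 0.991). Tal1 and Nfe2, transcription factors shared with the stem cell and megakaryocyte programmes, were at 27.7 ± 7.40 and 438 ± 41.1 TPM in Idh2R172K against 20.7 ± 4.22 and 364 ± 38.8 TPM in Idh2R140Q. Their adjusted p were 0.319 and 0.144, and 0.00922 and 0.0164 with the replicate block, under which 22 members of the list were lower and 4 higher. Leaving out any 1 library gave 19 to 21 lower members and 1 higher.

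The motifs searched, on both strands, were those bound by GATA1: AGATAA with its variant AGATAG, as well as TGATAA with its variant TGATAG. In RefSeq promoters of GRCm38.p6 (250 bases before to 50 after a start site), 14 of the 20 erythroid genes that fell had 20 promoters, and 11 of these (55%) held at least 1 of the motifs. The share was 29.8% of all 32851 promoters and 19.3% of the 12136 promoters of genes tested here, 23.2% for all genes lower in Idh2R172K and 22.1% for all genes higher. It was 50% for the 34 promoters of all erythroid genes tested. These include the 20 promoters of the falling genes, so the shares do not compare falling with other members. The stretches below are shown because they hold a motif (in capitals) within 80 bases before the start site of genes that fell, with the strand of the gene. A match describes the letters only. Ermap, an erythroid membrane protein, and Rhag, a partner of Rhd, were added after their values were seen (20.6 ± 3.67 to 2.44 ± 0.408 TPM and 18.2 ± 1.34 to 4.41 ± 0.888 TPM).
Klf1, chr8:84901882-84901927, plus: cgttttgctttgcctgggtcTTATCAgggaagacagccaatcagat
Epor, chr9:21963605-21963650, minus: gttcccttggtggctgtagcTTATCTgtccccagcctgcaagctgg
Rhd, chr4:134864473-134864518, plus: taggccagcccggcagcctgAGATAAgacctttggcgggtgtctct
Ermap, chr4:119190037-119190082, minus: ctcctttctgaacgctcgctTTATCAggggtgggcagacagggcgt
Rhag, chr17:40811098-40811143, plus: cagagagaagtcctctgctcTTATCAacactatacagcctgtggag

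Of 30 genes of haem synthesis and iron handling, 5 were lower and 1 higher (median -0.17). With the replicate block 11 were lower. Alad, an enzyme of the porphyrin pathway, fell from 136 ± 11.8 to 80.2 ± 8.17 TPM (limma adjusted p = 0.00167). Fth1, the ferritin heavy chain that stores iron, had 4187, 4015, 3935 and 3396 TPM in Idh2R140Q and 2739, 2673, 2756 and 2219 TPM in Idh2R172K (-0.58 ± 0.10, adjusted p = 0.0065, and 0.0907 after median-of-ratios scaling). Ncoa4, the receptor that carries ferritin to the lysosome, was the higher member, at 152 ± 8.39 against 116 ± 8.32 TPM (adjusted p = 0.0117, and 0.15 in the fit of all 20 libraries). The Idh2R172K libraries lay on 1 side of the Idh2R140Q libraries for each of these 3 genes.

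Granulocyte and monocyte genes fell in part. Of 32 tested, 11 were lower and 1 was higher, with a median of -0.63, and 17 were lower and 3 higher with the replicate block. The count of lower members was 6 without Idh2R140Q library 1 or Idh2R172K library 1, and 7 without Idh2R140Q library 2 or 3 or Idh2R172K library 3. Without Idh2R172K library 1 there were 2 higher. Ctsg, cathepsin G of the primary granules, had 675, 665, 1199 and 662 TPM in Idh2R140Q and 161, 292, 228 and 237 TPM in Idh2R172K (-1.78 ± 0.23, limma adjusted p = 0.00205). Hk3, the hexokinase of myeloid cells, had 110.3, 144, 185 and 144 TPM in Idh2R140Q and 26.0, 34.4, 29.8 and 31.9 TPM in Idh2R172K (-2.20 ± 0.16, adjusted p = 0.000109). Irf8, a transcription factor of monocytes and dendritic cells named after its values were seen, had 101, 93.5, 165 and 117 TPM in Idh2R140Q and 35.4, 47.8, 59.5 and 44.8 TPM in Idh2R172K (-1.32 ± 0.20, adjusted p = 0.00419). In all 3 genes the highest Idh2R172K library lay below the lowest Idh2R140Q library. Clec12a, an inhibitory lectin receptor, fell from 68.7 ± 13.3 to 26.0 ± 2.67 TPM.

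Other genes of the same programme did not follow. Mpo, myeloperoxidase, had 3071, 2619, 5392 and 2599 TPM in Idh2R140Q and 2243, 2755, 2599.8 and 2178 TPM in Idh2R172K, with overlap (adjusted p = 0.323), and Idh2R140Q library 3 was the highest. The transcription factors Spi1 and Cebpa had adjusted p of 0.683 and 0.955 and overlapping libraries, at means of 195 and 23.5 TPM in Idh2R172K against 188 and 22.6 TPM in Idh2R140Q. Csf2rb2, the beta subunit of the mouse interleukin 3 receptor, rose. It had 28.5, 44.0, 38.7 and 43.2 TPM in Idh2R172K and 10.2, 8.51, 16.9 and 11.9 TPM in Idh2R140Q (1.64 ± 0.21, limma adjusted p = 0.00191).

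Genes of basophils, mast cells and eosinophils moved in both directions. Prss34, a basophil protease, had 133, 117, 90.9 and 141 TPM in Idh2R140Q and 35.7, 12.2, 14.8 and 17.3 TPM in Idh2R172K (-2.63 ± 0.30, limma adjusted p = 0.000969). Ms4a2 and Fcer1a, chains of the IgE receptor, fell from 7.59 ± 1.40 to 0.639 ± 0.207 TPM and from 18.5 ± 2.74 to 4.92 ± 0.996 TPM. Cpa3, the mast cell carboxypeptidase, instead rose from 115 ± 22.7 to 281 ± 50.8 TPM (1.29 ± 0.17, adjusted p = 0.0018), and Mcpt8 and Hdc were not called (adjusted p = 0.382 and 0.107). The 8 basophil and mast genes tested thus held 3 lower and 1 higher member, unchanged with any 1 library left out. Prg2, the eosinophil granule protein, had 232, 65.5, 80.5 and 46.0 TPM in Idh2R140Q and 11.0, 4.21, 7.34 and 14 TPM in Idh2R172K (-3.22 ± 0.51, adjusted p = 0.00457), with Idh2R140Q library 1 far above the others. Siglecf, a surface lectin of eosinophils, rose from 13.8 ± 2.00 to 26.6 ± 4.35 TPM. Of the 8 eosinophil genes tested 3 were lower and 1 higher, and only 1 was lower without Idh2R140Q library 3 or Idh2R172K library 1, 2 or 3.

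Part of the lymphoid list fell as well. Of 26 genes tested, 11 were lower and 1 was higher, with a median of -0.39, and 8 to 10 were lower with any 1 library left out (2 were higher without Idh2R140Q library 4). Dntt, the polymerase that adds bases at antigen receptor joints, had 1121, 901, 899 and 1243 TPM in Idh2R140Q and 196, 242, 232 and 257 TPM in Idh2R172K (-2.15 ± 0.13, limma adjusted p = 4.69e-05). Lck, a T cell kinase, had 41.9, 49.2, 35.8 and 63.3 TPM in Idh2R140Q and 7.44, 8.77, 9.32 and 11.9 TPM in Idh2R172K (-2.21 ± 0.19, adjusted p = 0.000281). Cd27, a receptor of the tumour necrosis factor family, fell from 241 ± 33.9 to 116 ± 13.6 TPM, and the chemokine receptor Ccr7 from 15.4 ± 2.21 to 7.67 ± 0.440 TPM. None of these 4 genes had overlapping libraries.

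Flt3, the cytokine receptor of lymphoid-primed progenitors, had 280.0, 278, 229 and 421 TPM in Idh2R140Q and 135, 169.5, 144 and 189.9 TPM in Idh2R172K. The libraries did not overlap (-0.89 ± 0.19, limma adjusted p = 0.0184), but the adjusted p was 0.0566 without Idh2R172K library 1 and 0.0564 without library 3. Il7r, the interleukin 7 receptor, overlapped at 13.3 to 15.7 TPM in Idh2R172K and 10.6 to 21.7 TPM in Idh2R140Q (adjusted p = 0.741). Among markers of T cells, the T cell receptor constant genes Trbc1 and Trbc2 and the co-receptor Cd4 were lower, at means of 2.63, 1.49 and 1.03 TPM against 11.8, 5.12 and 4.67 TPM, while Cd3e, Cd3d and Cd3g had means under 1 TPM. Of 226 antigen receptor segments tested, 15 were called, 4 higher and 11 lower, where 9.29% of all genes were called.

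MHC class II genes, which dendritic and B cells use to present antigen, were lower for the most part, but H2-Oa, a class II gene outside the list used below, was called higher. H2-Aa had 61.7, 102, 54.1 and 61.6 TPM in Idh2R140Q and 22.4, 20.2, 11.4 and 21.1 TPM in Idh2R172K (-1.84 ± 0.25, limma adjusted p = 0.00243). H2-Ab1 had 195, 272, 178 and 204 TPM in Idh2R140Q and 90.8, 92.5, 60.8 and 88.0 TPM in Idh2R172K (-1.34 ± 0.17, adjusted p = 0.00159). H2-DMa and H2-DMb1, which load peptides onto class II, fell from 399 ± 29.6 to 257 ± 15.3 TPM and from 91.2 ± 7.10 to 61.6 ± 5.75 TPM. No library of one genotype entered the range of the other. Of 13 genes of the dendritic and class II list 8 were lower and none higher, and 5 were lower without Idh2R172K library 1 or 3. The summed level of the list was 835 to 982 TPM in Idh2R172K, 1379 to 1833 TPM in Idh2R140Q and 1322 to 1776 TPM in WT. Of 22 class I genes 1 was called higher (H2-T24, limma adjusted p = 0.0252) and none lower, but the median was -0.17 and only 5 lay above 0. With the replicate block 11 were lower and 2 higher, against 13% and 13.1% of all genes. The call of H2-T24 did not hold without Idh2R140Q library 1, 2 or 3 or Idh2R172K library 1 (adjusted p of 0.0586 to 0.0784).

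Megakaryocyte genes went the other way. Of 24 tested, 8 were higher and 3 lower in Idh2R172K, with a median of 0.44, and 1 was lower without Idh2R140Q library 2 or 3. Itga2b, the platelet integrin CD41, had 185, 221, 199 and 292 TPM in Idh2R172K and 75.5, 101, 90.2 and 124 TPM in Idh2R140Q (1.19 ± 0.18, limma adjusted p = 0.00369). Selp, P-selectin, had 156, 204, 215 and 203 TPM in Idh2R172K and 41.5, 31.3, 58.0 and 42.2 TPM in Idh2R140Q (2.17 ± 0.18, adjusted p = 0.000224). Every Idh2R172K library was above every Idh2R140Q library for both genes. Rab27b, a regulator of platelet granules, rose from 5.72 ± 0.234 to 13.4 ± 1.35 TPM. Plek, pleckstrin, rose from 237 ± 26.5 to 384 ± 10.9 TPM (adjusted p = 0.00119, and 0.0905 in the fit of all 20 libraries). The 3 lower members were Pf4, Cavin2 and Vwf, named after their values were seen. Pf4, a platelet chemokine, had 115, 194, 171 and 94.0 TPM in Idh2R140Q and 54.9, 74.4, 25.9 and 32.1 TPM in Idh2R172K, and its adjusted p of 0.0207 became 0.0647 and 0.0647 without Idh2R140Q library 2 or 3. Vwf, at 2.96 ± 1.65 against 7.72 ± 2.24 TPM with overlapping libraries, lost its call (adjusted p = 0.0388) without Idh2R140Q library 2, 3 or 4 or Idh2R172K library 1, 3 or 4, at 0.051 to 0.109.

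The stem cell list was split. Of 36 genes tested, 6 were higher and 2 lower, with a median of 0.07, and 12 were higher with the replicate block. Lower members were 1 without any library other than Idh2R140Q library 1 or Idh2R172K library 2, and 4 were higher without Idh2R140Q library 3 or Idh2R172K library 2 or 4. Tek, the angiopoietin receptor of quiescent stem cells, had 52.5, 44.8, 49.7 and 56.3 TPM in Idh2R172K and 20.5, 18.6, 19.3 and 20.6 TPM in Idh2R140Q (1.32 ± 0.09, limma adjusted p = 0.000109). Mycn rose from 73.2 ± 18.7 to 156 ± 24.8 TPM. Prdm16, a chromatin factor needed for stem cell maintenance, fell with no overlap, from 6.72, 9.64, 7.27 and 8.85 TPM in Idh2R140Q to 1.44, 2.09, 1.35 and 1.66 TPM in Idh2R172K (-1.79 ± 0.16, adjusted p = 0.00029). Procr and Hlf, which mark the most primitive cells, overlapped, at 31.3 ± 9.74 and 67.9 ± 9.41 TPM in Idh2R172K against 32.8 ± 15.0 and 89.4 ± 25.7 TPM in Idh2R140Q (adjusted p = 0.999 and 0.35). Kit was higher (0.46 ± 0.11, adjusted p = 0.0327), and this call did not hold without Idh2R140Q library 1 or 3 or without any 1 Idh2R172K library (adjusted p of 0.0501 to 0.102).

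Cytokine receptors and adhesion molecules changed in both directions. Of 33 receptors 6 were higher and 8 lower, and of 34 adhesion and niche genes 8 were higher and 4 lower (5 higher without Idh2R172K library 2, 14 with the replicate block). Besides the receptors above, Il18r1, an interleukin 18 receptor chain, had 2.94, 3.4, 1.95 and 4.47 TPM in Idh2R140Q and 0.166, 0.153, 0.0681 and 0.209 TPM in Idh2R172K (-1.83 ± 0.20, limma adjusted p = 0.000766). Cxcr4, the receptor that holds progenitors in the marrow, had 92.4, 78.3, 91.1 and 98.2 TPM in Idh2R140Q and 58.3, 62.0, 56.6 and 53.5 TPM in Idh2R172K (-0.63 ± 0.09, adjusted p = 0.00254). The libraries did not overlap for either gene. Among 49 blood transcription factors 4 were higher and 5 lower, and 9 and 11 with the replicate block. Over all genes tested 3.59% were higher and 5.7% lower, and 13.1% and 13% with the block. Spib, an Ets factor related to Spi1, rose from 0.490 ± 0.248 to 2.19 ± 0.303 TPM.

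**Figure D5:**
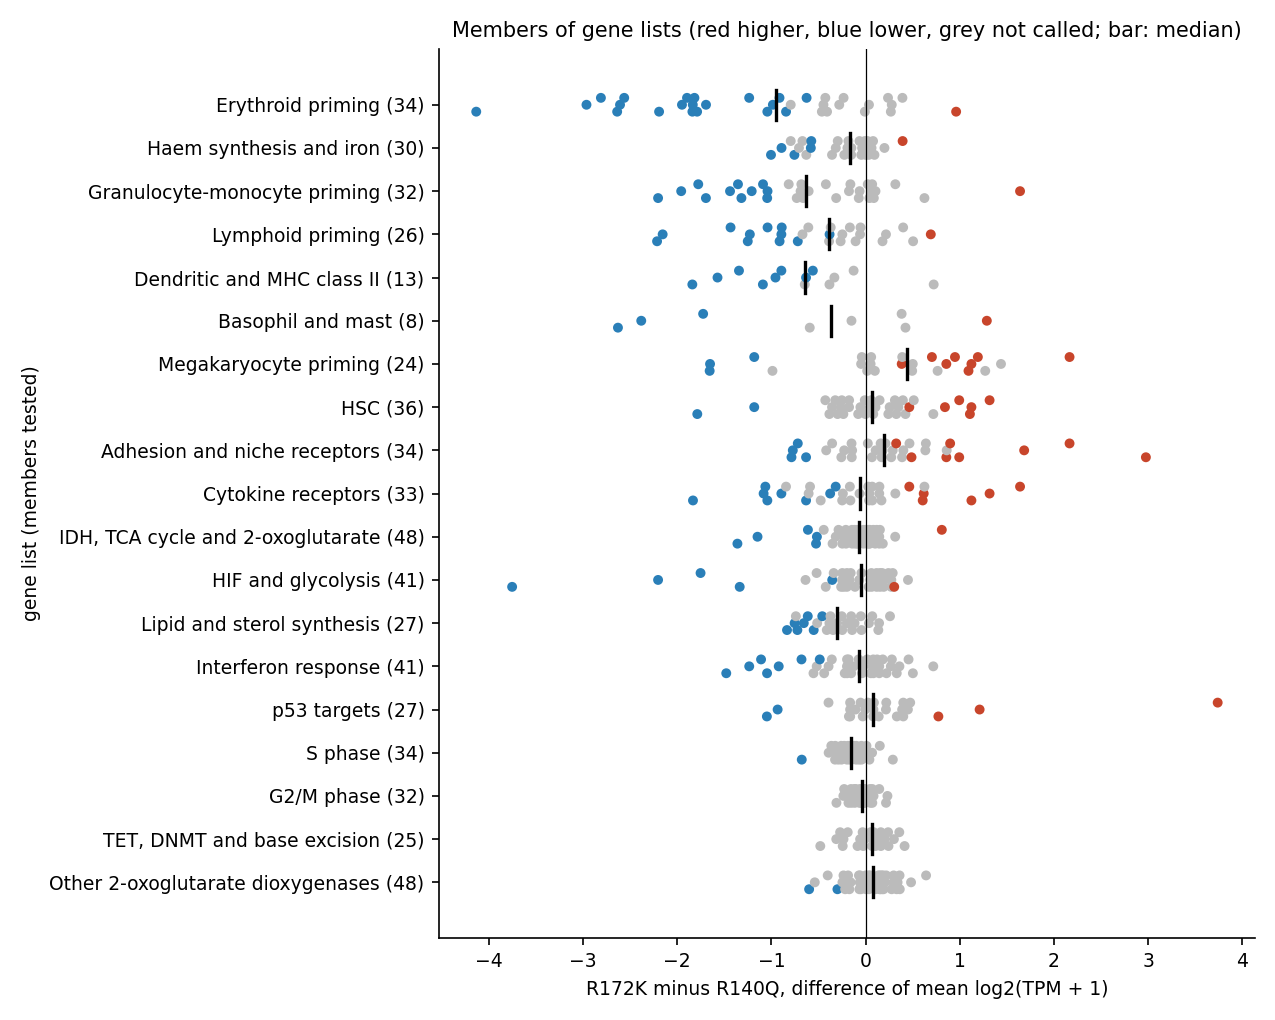
Difference of mean log2(TPM + 1), Idh2R172K minus Idh2R140Q, of each tested member of 19 gene lists, with called members in red (higher) or blue (lower) and the list median as a bar. The medians run from -0.95 for erythroid priming to 0.44 for megakaryocyte priming, and the G2/M and TET lists have no called member.

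Cell cycle genes had few calls, but those of S phase leaned lower. Of 32 genes of G2/M none was called by limma (1 higher and 2 lower with the replicate block; 1 had an unadjusted p under 0.05). Mki67, the proliferation marker, had 67.8, 83.0, 74.3 and 85.4 TPM in Idh2R172K and 76.9, 83.9, 83.9 and 102 TPM in Idh2R140Q (adjusted p = 0.478), with overlap. Of 34 S phase genes Rrm2, a subunit of ribonucleotide reductase, was the 1 lower member, at 124, 112, 125 and 122 TPM in Idh2R172K and 183, 166, 227 and 204 TPM in Idh2R140Q (-0.68 ± 0.10, limma adjusted p = 0.00356). The list median was -0.15, only 6 of 34 members lay above 0, and 15 were lower with the replicate block, against 13% of all genes. 3 were lower without Idh2R172K library 3, and 1 was higher without Idh2R140Q library 4. Cdkn2d, the inhibitor p19 of the G1 kinases, rose from 104 ± 5.72 to 142 ± 5.36 TPM (adjusted p = 0.00322).

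Perp was not typical of p53 targets. Of 27 tested, Perp, Pmaip1 and Phlda3 were higher and Tnfrsf10b and Plk2 lower (all genes: 3.59% and 5.7%), with a list median of 0.08. With the replicate block 9 were higher and 3 lower (all genes: 13.1% and 13%). Pmaip1, the BH3-only protein NOXA, had 7.79, 11.0, 12.1 and 10.7 TPM in Idh2R172K and 3.86, 3.07, 4.40 and 4.29 TPM in Idh2R140Q (1.21 ± 0.16, limma adjusted p = 0.0023). Phlda3, which restrains AKT, rose from 13.3 ± 1.61 to 23.4 ± 2.41 TPM, and the death receptor Tnfrsf10b fell from 2.45 ± 0.258 to 0.814 ± 0.254 TPM. Cdkn1a and Mdm2, the most used p53 targets, named after their values were seen, were at 44.1 ± 6.99 and 56.9 ± 13.2 TPM in Idh2R172K against 37.8 ± 7.02 and 49.0 ± 12.7 TPM in Idh2R140Q (adjusted p = 0.488 and 0.608, and 0.248 and 0.0347 with the replicate block). Plk2 was not called without Idh2R140Q library 1, 2 or 4 or Idh2R172K library 1, 2 or 3 (adjusted p of 0.0726 to 0.107). Of 40 DNA damage response genes 1 was called, Xrcc6, lower at 81.4 ± 6.04 against 109.9 ± 14 TPM, and it was not called without Idh2R140Q library 1 or 3 or Idh2R172K library 1, 2 or 3 (adjusted p of 0.0645 to 0.1).

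Of 41 interferon response genes 7 were lower and none higher (all genes: 5.7% and 3.59%), with a median of -0.07. With the replicate block 5 were higher and 13 lower (all genes: 13.1% and 13%). 1 was higher without Idh2R140Q library 1 or 4. Zbp1, a sensor of Z-form nucleic acid, had 6.97, 6.03, 6.69 and 5.60 TPM in Idh2R140Q and 1.69, 1.19, 1.63 and 2.04 TPM in Idh2R172K (-1.48 ± 0.15, limma adjusted p = 0.000514). Ifi47, an interferon-inducible GTPase, had 232, 262, 262 and 184 TPM in Idh2R140Q and 129, 118, 139 and 106 TPM in Idh2R172K (-0.92 ± 0.13, adjusted p = 0.00289). Gbp3 and Oasl1 fell from 55.4 ± 11.4 to 26.0 ± 1.83 TPM and from 17.7 ± 3.42 to 7.63 ± 1.30 TPM. Of 25 inflammation genes 2 were higher and 3 lower, Ccl3 among the latter, with 5 and 6 under the replicate block. Only 1 was higher without any library other than Idh2R140Q library 4, and 1 was lower without Idh2R140Q library 1 or Idh2R172K library 1 or 2. Socs3, the feedback inhibitor of JAK-STAT signalling, had 61.8, 101, 74.1 and 114 TPM in Idh2R172K and 17.4, 18.9, 21.6 and 46.6 TPM in Idh2R140Q (1.78 ± 0.32, adjusted p = 0.00857). Its lowest Idh2R172K library lay above the highest Idh2R140Q library, which was library 4.

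Most enzymes around 2-oxoglutarate itself were not called in the main fit, but the list leaned slightly lower. Of 48 tested, Idh2 was the 1 higher and 5 were lower (all genes: 3.59% and 5.7%), with a median of -0.07. Of the 48, 19 lay above 0, against 55.0% of all genes. With the replicate block 2 were higher and 13 lower (all genes: 13.1% and 13%). The count of lower members was 3 without library 1 or 2 of either genotype. Pcx, pyruvate carboxylase, which feeds oxaloacetate into the TCA cycle, had 7.55, 6.34, 7.5 and 7.01 TPM in Idh2R140Q and 3.02, 1.86, 1.80 and 2.04 TPM in Idh2R172K (-1.36 ± 0.15, limma adjusted p = 0.00092). Gpt2, the mitochondrial transaminase that makes 2-oxoglutarate from glutamate, had 4.26, 5.13, 6.67 and 5.65 TPM in Idh2R140Q and 1.77, 1.51, 2.46 and 1.84 TPM in Idh2R172K (-1.15 ± 0.17, adjusted p = 0.0031). Ogdh, the 2-oxoglutarate dehydrogenase, fell from 268 ± 24.9 to 186 ± 19.2 TPM (adjusted p = 0.0103, and 0.144 in the fit of all 20 libraries). None of these 3 genes had overlapping libraries. D2hgdh, which oxidises D-2-hydroxyglutarate, was at 31.1 ± 3.50 TPM in Idh2R172K against 24.7 ± 2.31 TPM in Idh2R140Q (adjusted p = 0.121). With the replicate block D2hgdh passed (adjusted p = 0.0107), and its Idh2R172K libraries (27.9 to 35.4 TPM) lay just above the Idh2R140Q libraries (22.1 to 27.7 TPM).

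Few genes of the lists that hold the TET enzymes and other 2-oxoglutarate dioxygenases were called at the RNA level in the main fit. With the replicate block both lists were near the share of all genes. Of 25 genes of the TET, DNMT and base excision list none was called by limma, where 9.29% of all genes were called (1 had an unadjusted p under 0.05). With the replicate block 3 were higher and 3 lower, where 26% of all genes were called. Of 48 other 2-oxoglutarate dioxygenases 2 were lower and none higher, where 9.29% of all genes were called. With the replicate block 9 were higher and 5 lower, where 26% of all genes were called. The hypoxia sensor Egln3 had 39.3, 41.6, 45.1 and 42.9 TPM in Idh2R140Q and 27.3, 28.8, 32.1 and 22.6 TPM in Idh2R172K without overlap (-0.60 ± 0.11, adjusted p = 0.0112, and 0.0565 after quantile normalisation). Phyh, a peroxisomal enzyme, was lower at 48.7 ± 2.43 against 60.1 ± 3.34 TPM (adjusted p = 0.0384). Its call did not hold without any library other than Idh2R140Q library 4 (adjusted p of 0.0567 to 0.107), and without Idh2R140Q library 4 there were 2 higher members of the list.

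Glycolysis and lipid genes had a few clear falls. Of 41 genes of glycolysis and the hypoxia response 5 were lower and 1 higher (all genes: 5.7% and 3.59%). With the replicate block 14 were lower and 4 higher (all genes: 13% and 13.1%). Fbp1, the gluconeogenic fructose bisphosphatase, had 36.2, 50.6, 35.3 and 43.0 TPM in Idh2R140Q and 2.48, 2.41, 1.25 and 2.46 TPM in Idh2R172K (-3.75 ± 0.19, limma adjusted p = 2.67e-05). Ldhb, a lactate dehydrogenase subunit, had 97.8, 86.4, 81.2 and 83.9 TPM in Idh2R140Q and 39.8, 33.1, 34.3 and 29.1 TPM in Idh2R172K (-1.34 ± 0.11, adjusted p = 0.000195). Pklr, the pyruvate kinase of red cells and liver, fell from 4.48 ± 1.10 to 0.624 ± 0.304 TPM. The one higher member, Vhl, at 66.4 ± 2.84 against 53.5 ± 1.6 TPM (adjusted p = 0.0211), was not called without Idh2R140Q library 1 or 3 or Idh2R172K library 1, 2 or 3 (adjusted p of 0.0561 to 0.0769). Of 27 lipid and sterol genes 7 were lower and none higher, with a median of -0.30, and 12 were lower with the replicate block (all genes lower: 5.7%, and 13% with the block). Only 2 to 4 were lower without library 1 or 2 of either genotype, Idh2R140Q library 3 or Idh2R172K library 4. Abcg1, which exports cholesterol, fell from 68.3 ± 10.9 to 39.9 ± 4.09 TPM, and Scd2, a fatty acid desaturase, from 312 ± 26.7 to 197 ± 9.38 TPM (adjusted p = 0.00102, and 0.135 in the fit of all 20 libraries). WT lay between the alleles for Scd2, at 247 ± 12 TPM.

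Of 24 genes of the stress and unfolded protein response 5 were lower and none higher, with a median of -0.19. With the replicate block 8 were lower (all genes lower: 5.7%, and 13% with the block). Xbp1, a transcription factor of the secretory pathway, had 152, 179, 169.6 and 181 TPM in Idh2R140Q and 93.0, 102, 109 and 98.0 TPM in Idh2R172K (-0.76 ± 0.08, limma adjusted p = 0.000723). Asns, asparagine synthetase, had 30.4, 36.1, 51.4 and 31.2 TPM in Idh2R140Q and 13.6, 11.1, 14.7 and 8.82 TPM in Idh2R172K (-1.54 ± 0.20, adjusted p = 0.00206). Neither gene overlapped between the genotypes. The count of lower members was 3 without Idh2R140Q library 2 or Idh2R172K library 1 or 2. Hspa8, a constitutive heat shock protein, was the 1 called member of 27 immediate early and heat shock genes, at 544 ± 90.0 against 842 ± 69.7 TPM (adjusted p = 0.0118), and 2 were higher without Idh2R140Q library 4.

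Markers of other cells that the gate could admit were given side by side. The summed level of 12 mature neutrophil genes was 34.9 to 98.6 TPM in Idh2R172K and 61.3 to 418 TPM in Idh2R140Q, with none called and Ly6g under 1 TPM (1 was lower without Idh2R140Q library 1). The 12 macrophage genes tested summed to 143 to 165 TPM against 199 to 313 TPM, and 2 were lower, Cd68 (62.9 ± 7.56 to 31.3 ± 3.13 TPM) and Cd163. The 11 red cell genes summed to 119.6 to 147 TPM against 118 to 136 TPM, with 1 lower member. The 7 B lineage genes summed to 718 to 3382 TPM against 921 to 2832 TPM, and Cd79b, a chain of the B cell receptor, was the 1 lower member (84.1 ± 1.67 to 29.0 ± 7.76 TPM). The 10 T and NK genes summed to 746 to 844 TPM against 773 to 968 TPM, with 5 lower. The 8 eosinophil genes summed to 40.4 to 54.7 TPM against 82.0 to 362 TPM. Of 7 stroma and endothelium genes 4 were higher, among them Pdgfrb and Tie1 (120.0 ± 33.9 to 294 ± 28.3 TPM and 47.1 ± 10.1 to 94.7 ± 15.7 TPM), and 1 was lower, while Cxcl12, Lepr, Col1a1 and Cdh5 had means under 1 TPM over the 8 libraries. The lower member was Emcn, not called without Idh2R140Q library 1 or 2 or Idh2R172K library 2 or 3, and 3 were higher without the first 3 of these. The part of these cells in the differences above was not tested.

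Both alleles were made in Idh2, so its neighbours were examined. Within 5 Mb on either side 66 other genes were tested and 8 were called (12.1%), against 10.1% of chromosome 7 and 9.29% of all genes. Mfge8, which bridges dying cells to phagocytes, was the 1 called neighbour that held with any library left out, at 346, 313, 329 and 339 TPM in Idh2R172K and 244, 238, 226 and 248 TPM in Idh2R140Q (0.47 ± 0.06, limma adjusted p = 0.00159), and WT had 212 ± 17.9 TPM. The others were Abhd2, Arpin, Zfp710, Ramac and 5430400D12Rik, higher, and Det1 and Fah, lower. Without Idh2R140Q library 1, 2 or 3 or Idh2R172K library 1, 2, 3 or 4 the count was 4, 1, 1, 2, 1, 2 and 3, and 18 were called with the replicate block, where 26% of all genes were called. Hapln3, a matrix link protein gene 980 kb from Idh2, was the 1 gene called between Idh2R140Q and WT. It was also called higher in Idh2R172K than in WT (log2 difference 0.55 ± 0.12, limma adjusted p = 0.00483). It had 1.08, 1.46, 2.19 and 1.34 TPM in Idh2R140Q and 0.171, 0.0973, 0.104 and 0.128 TPM in WT, and 0.814, 0.687, 0.515 and 0.585 TPM in Idh2R172K, between them. The difference between the alleles was not called (-0.60 ± 0.17, adjusted p = 0.0644, but 0.003 in the fit of all 20 libraries), although the libraries did not overlap.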

How the data were processed

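RNA-seq of LSK cells was compared between 4 Idh2R172K and 4 Idh2R140Q libraries, with 4 WT libraries as a reference. The deposited values are TPM per gene, which the authors computed. Trim Galore, STAR, featureCounts and mm10 are named per the submitters' processing notes, and their versions, the annotation and the strand setting are not given in the sources used here. A column prefix of the Idh2R140Q libraries reads IDH1, while the sample labels say Idh2R140Q, which was followed. Of 46078 gene IDs, 45229 matched GENCODE M21.

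A gene had to average 1 TPM or more in these 8 libraries and was tested on log2(TPM + 1), a scale that understates changes of low genes, with limma 3.58.1 in R 4.3.3 (variance trend, 2-sided, Benjamini-Hochberg over all 14221 genes). A gene was called at an adjusted p under 0.05. The comparisons with WT used all 20 libraries. Rebuilt reads (90.0 to 90.7% of low values whole) gave a voom fit as an alternative. Replicates are pools of 2 mice, and nothing says how the pools were collected, so p-values measure the spread between pools. Same-numbered libraries deviated together (correlations of 0.207 to 0.528 in 4 pairs, against -0.354 to 0.218 in 12 other pairs). The numbers were therefore taken to pair the libraries in the replicate block, and the pairing comes from the label numbers and this check. The main fit, which gave the calls, left this pairing out. Genes were named by rule: Idh2, Idh1 and Tet2, the 15 largest rises and falls without overlap, up to 4 called members of each list by smallest p, 10 fixed genes, called genes within 5 Mb of Idh2 and the 5 most abundant called genes in each direction. Unnamed models, microRNAs and antigen receptor segments were left out (144 called). Genes outside the rule were chosen after their values were seen. A few genes that the rule names, and 1 sequence, are not reported here. The members and the 37 lists were chosen with earlier results of these data known. The alternatives were other filters, pseudocounts, scalings and variance models, the replicate block, and each library left out. The fit with sex of the pools was chosen after seeing the data. The procedure was tested on simulated data. Tables used Python 3.11.15, pandas 2.3.3 and numpy 2.4.6, and figures matplotlib 3.10.9.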

Additional observations from a re-analysis of the deposited data

Results flagged for a closer look

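In the 292 groups of 4 libraries behind the 146 genes with values above, 22 held 1 library far from the other 3. Chance alone marks about 1 in 20 such groups. Of these, 11 were number 4 libraries, 6 of Idh2R140Q and 5 of Idh2R172K. In Idh2R140Q library 4, Mdm2 was at 68.04 TPM (others 41.9 to 43.9), Socs3 at 46.65 (17.4 to 21.6), Ly9 at 45.73 (29.3 to 31.7), Xrcc6 at 130.6 (99.6 to 105), Dlk1 at 1.036 (0.616 to 0.680) and the globin Hbb-bt at 19.66 (30.3 to 32.0). In Idh2R172K library 4, Fth1 was at 2219 TPM (2673 to 2756), Plek at 400.6 (378 to 380.4), Procr at 45.8 (24.9 to 28.3), Psma8 at 1.237 (0 to 0.194) and Cdkn2d at 134.3 (144.9 to 145.1).

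Idh2R140Q library 3 was far above the others for 3 myeloid genes, Ctsg at 1199 TPM (662 to 675), Mpo at 5392 (2599 to 3071) and Hdc at 18.26 (10.5 to 11.7). Idh2R140Q library 2 was high for H2-Aa at 102.3 TPM (54.1 to 61.7) and S100a4 at 6.228 (3.25 to 3.61), and low for H2-T24 at 12.5 (13.7 to 13.8). Idh2R172K library 3 was low for H2-Ab1 at 60.82 TPM (88.0 to 92.5) and Fbp1 at 1.253 (2.41 to 2.48), and high for Oasl1 at 9.559 (6.73 to 7.13). Idh2R172K library 2 was high for H2-DMb1 at 70.19 TPM (58.4 to 59.2) and Hdc at 10.28 (7.0 to 7.5).

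The difference between the alleles itself differed between female pools (1 and 3) and male pools (2 and 4) for 7 genes at an adjusted p under 0.05 (limma interaction, 230 at an unadjusted p under 0.05), on 2 pools of each sex and allele. The interaction, male minus female on the log2 scale, was 7.849 for the small RNA gene Gm25911, at 5.20 and 10.3 TPM in Idh2R172K libraries 1 and 3 and 1231 to 2076 TPM in the other 6. It was 3.507 for Cdh4, a cadherin, at 9.49 and 11.0 TPM in Idh2R140Q libraries 1 and 3 and at most 0.0231 TPM elsewhere. The other 5 were immunoglobulin variable segments. Igkv8-21 (4.624), Igkv3-9 (5.512), Ighv5-9 (4.455) and Ighv9-1 (4.135) were high only in Idh2R172K libraries 2 and 4, and Igkv1-133 (-4.78) only in Idh2R140Q libraries 2 and 4.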

How the results depend on the processing

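None of the 1321 called genes changed direction under the 23 settings tried, and 736 were called in all of them. The count of called genes was 2165 with library weights (1040 higher), 868 with a mean of at least 5 TPM (503 lower), 3701 with the replicate block in 8 libraries (1856 higher, 1845 lower) and 2079 with it in all 20 (861 and 1218). Leaving out each library gave 878 to 1408 called, 288 to 685 higher and 590 to 737 lower genes. limma-voom on rebuilt reads called 1645. Genes higher by at least 2-fold numbered 210 by limma-voom and 89 at 5 TPM, and lower by at least 2-fold 204 at 5 TPM. Near Idh2, 5 were called at 5 TPM, 4 with no filter, 18 with the block and 1 to 6 with a library left out. Tet2 (log2 difference 0.358) passed with the block (adjusted p = 0.0384). Of the 1321 calls the block ended 0. The higher genes were 47.0% of those called without both number 4 libraries. The mitochondrial list had no value when abundant genes were removed. The cause of these shifts was not tested. The tests rest on 4 pools a genotype, which limits the precision of every difference.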
